A study of Mus musculus with 14 samples.

Results

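Corneal stromal cells of adult CD-1 mice (an outbred strain) that had been cultured as myofibroblasts were compared with the same kind of cells cultured as keratocytes, on Affymetrix MG_U74Av2 arrays that carry 1 summary signal for each probe set. Each culture condition had 3 arrays, so the comparison rests on 6 of the 14 arrays of the study. The myofibroblast cultures grew in DMEM with 10% fetal bovine serum and 10 ng/ml TGF-beta1, without platelet-poor horse serum. The fibroblast cultures, used here only to place the joint change between serum and TGF-beta1, grew in DMEM with 10% fetal bovine serum and no added TGF-beta1. The keratocyte cultures grew in DMEM with 1% platelet-poor horse serum and neither of those additions. All 9 cultures were primary cultures of stromal cells from mice aged 7 to 8 weeks, and 5 further arrays came from stroma that was not cultured. Platelet-poor serum lacks most of the growth factors that platelets release, so the comparison changes the source of the serum, its amount and TGF-beta1 together. Members are the probe sets that averaged a signal of at least 50 in either culture, 9710 of 12422 once the array's own control probe sets are set aside. Just inside that limit lay Ndufc2, at 50.01 in myofibroblast and 46.7 in keratocyte cultures, and just outside it Pramel6, at 49.9 and 36.2 in the same order. Kept probe sets with 1 gene symbol stood for 7067 genes, each read from its brightest probe set.

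Keratocytes are the quiet cells of the corneal stroma. They keep the tissue clear with evenly spaced collagen fibrils, small proteoglycans such as keratocan and lumican, and abundant soluble enzymes known as corneal crystallins. After injury, serum factors turn them into dividing fibroblasts, and TGF-beta, acting through its receptor kinases and SMAD proteins, turns these into myofibroblasts, which assemble stress fibres of smooth muscle actin, contract the wound and lay down opaque matrix.

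Array medians were 102.0 to 118.0 in myofibroblast cultures and 117.7 to 135.7 in keratocyte cultures. The 3'/5' signal ratio of Gapdh, a measure of RNA integrity, ran from 0.756 to 0.819 in myofibroblast cultures, all below the 0.843 to 0.852 of keratocyte cultures, and its part in the results below was not tested. With that ratio in the fit over all 14 arrays 542 probe sets differed, against 598 without it. Uncultured adult stroma replicate 1, at 2.12, lay far outside the range of the cultures and weighs heavily in that fit. The count therefore cannot show the ratio's part in the difference between the cultures. Background was set at 137.7, the 95th percentile of 19 control probe sets whose transcripts had been left out of the sample, and 3517 of the kept probe sets had both culture means below it. Where a culture mean was below background no log2 difference is printed, and a fold is given as a lower bound that sets the dimmer culture at background or at its own signal, whichever was higher. Differences are otherwise on the log2(signal + 16) scale, myofibroblast minus keratocyte, with the standard error (SE) of the limma fit, and every adjusted p comes from that fit with Benjamini-Hochberg adjustment over all kept probe sets. Signals in a sentence run over replicates 1 to 3. The labels do not say whether the replicates came from separate mice, so the p-values measure only the spread between arrays. That spread is pooled over all 14 arrays of the study, so the fibroblast and uncultured arrays also enter each SE and adjusted p.

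Most of what changed was lower in myofibroblast culture. Of the 9710 probe sets 598 (6.16%) passed an adjusted p below 0.05, of which 114 (1.17%) were higher and 484 (4.98%) lower. A difference of 1 or more on the log2 scale was reached by 390 of them (4.02%), 57 higher (0.587%) and 333 lower (3.43%). Among genes, 438 of 7067 (6.2%) passed, 89 higher (1.26%) and 349 lower (4.94%). The signals of the 6 arrays did not overlap between the cultures for 2778 probe sets (28.6%), and for 597 of the 598 that passed. No overlap was also a condition for most genes named below, so where stated for them it adds nothing to the call. Without keratocyte replicate 1 the count was 296 and without keratocyte replicate 3 it was 303, of which 294 and 302 were among the 598. The higher count alone was 63 without myofibroblast replicate 3 and 75 without myofibroblast replicate 1, and the lower count 311 without myofibroblast replicate 2. The balance between directions depends on the scaling: with each array centred on its median 278 probe sets were higher and 360 lower, and after quantile normalization 279 and 396. Over all probe sets the median difference was -0.14 without such a step, 0.04 after centring and 0.03 after quantile normalization. For 366 of the 598 the lower culture mean was within background, and for 143 of the 598 both means were.

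**Figure D1:**
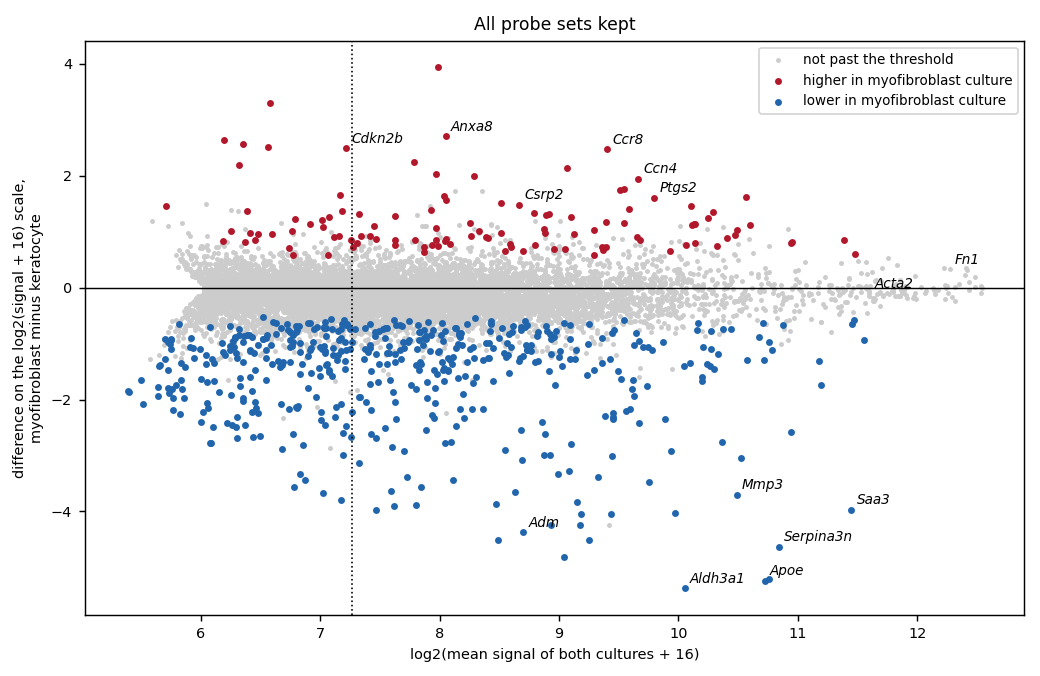
Difference between the cultures (myofibroblast minus keratocyte, log2(signal + 16) scale) against the log2 mean signal of both cultures, 1 point per kept probe set, with the 114 that were higher in myofibroblast culture in red and the 484 that were lower in blue. The dotted line marks the background signal of 137.7; the largest differences lie below 0, while Acta2 and Fn1 sit at the bright end near 0.

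Acta2 and Tagln, the smooth muscle genes most used to recognise myofibroblasts, were bright in both cultures and passed in neither direction, so they do not set the myofibroblast label apart from the keratocyte label. Acta2, the smooth muscle actin of stress fibres, had signals of 3061, 2954 and 2932 in myofibroblast cultures, against 3066, 3167 and 3347 in keratocyte cultures. The arrays lay close together, with all myofibroblast values just below the keratocyte values (difference -0.10, SE 0.42, adjusted p = 0.925), and the sign turned after median centring (0.08, adjusted p = 0.939). Uncultured adult stroma was at 56.0 ± 14.3 (SD, n = 3), within background. Tagln, the transgelin of smooth muscle, read 3011, 2299.7 and 2371 in myofibroblast cultures, against 2990.0, 3799 and 3793 in keratocyte cultures, with ranges that overlapped (adjusted p = 0.631). Fibroblast replicate 3 stood apart from the other 8 cultures in both genes, at 638 for Acta2 and 428 for Tagln. It enters the pooled spread, and so the SE and adjusted p of both genes. Over the alternatives the lowest adjusted p was 0.519 for Acta2 and 0.0732 for Tagln.

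Of 29 contractile cytoskeleton genes kept, 1 rose and 2 fell, which is close to the shares of all genes (1.26% higher and 4.94% lower), and the list's median was -0.07 against -0.15 for all genes. Every list count below is to be read beside these same shares and this median. Of this list, 1 fell without myofibroblast replicate 3 or keratocyte replicate 3; 1 rose and 1 fell after quantile normalization. Csrp2, a LIM-domain protein of smooth muscle and activated stromal cells, had signals of 653, 585 and 510.1 in myofibroblast cultures, against 206, 178 and 209 in keratocyte cultures. Every myofibroblast array was above every keratocyte array by a wide margin (difference 1.48, SE 0.22, adjusted p = 0.000959). Mylk, the kinase that activates smooth muscle myosin, gave 267, 313 and 184 in myofibroblast cultures, against 515, 541 and 628 in keratocyte cultures, and fell (difference -1.12, SE 0.25, adjusted p = 0.0164). Mylk lost its call without myofibroblast replicate 3 (0.086) or keratocyte replicate 3 (0.0875). The other gene that fell was Myh11, the smooth muscle myosin heavy chain, with both means within background: 32.0, 27.0 and 28.2 in myofibroblast cultures, against 114, 116 and 147 in keratocyte cultures (adjusted p = 0.00359). Among 10 markers of pericytes and smooth muscle 4 fell (Myh11, Notch3, Mcam and Abcc9) and none rose, with a median of -0.59. Of this list, 2 fell without myofibroblast replicate 1, myofibroblast replicate 2, keratocyte replicate 1 or keratocyte replicate 3; none rose and 2 fell after median centring. The summed signal of these markers was 4246 to 4539 in myofibroblast cultures and 5075 to 5534 in keratocyte cultures, and the part of such cells in the contractile genes was not tested.

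How many collagen genes passed depended on the scaling. Of 15 fibrillar and associated collagen genes 2 rose and 1 fell, with a median of 0.34. Of this list, none rose without myofibroblast replicate 3 or keratocyte replicate 3; 1 rose without keratocyte replicate 1 or keratocyte replicate 2; none fell without myofibroblast replicate 2, myofibroblast replicate 3, keratocyte replicate 1 or keratocyte replicate 3; 5 rose and none fell after median centring; 3 rose and none fell after quantile normalization. Col11a1, a minor fibril collagen that limits fibril width, read 741, 551 and 720.4 in myofibroblast cultures, against 310.1, 207 and 269 in keratocyte cultures (difference 1.31, SE 0.29, adjusted p = 0.0135). Col11a1 lost its call without myofibroblast replicate 3 (0.0543) or keratocyte replicate 3 (0.0507). Col8a1, a short-chain collagen of Descemet's membrane and of remodelling vessels, read 3271, 2730.4 and 4357 in myofibroblast cultures, against 2044, 1612 and 1959 in keratocyte cultures (difference 0.86, SE 0.21, adjusted p = 0.0231). Col8a1 lost its call without myofibroblast replicate 3 (0.119), keratocyte replicate 1 (0.0557), keratocyte replicate 2 (0.0711) or keratocyte replicate 3 (0.0716). Both genes had no overlap between the cultures. The main collagen gene of scars, Col1a1, stood at 6054 ± 683 in myofibroblast cultures and 4870.2 ± 229.7 in keratocyte cultures (SD, n = 3 each), without overlap but with an adjusted p of 0.125 (0.0123 after median centring). Fn1, the fibronectin gene, stood at 5497 ± 462 and 4358 ± 235 in the same order (adjusted p = 0.25). No gene passed among 12 that process and cross-link collagen or 19 that build glycosaminoglycans (1 of these rose without myofibroblast replicate 2, after median centring or after quantile normalization), among them Lox, the lysyl oxidase, at 3307 ± 213 in myofibroblast cultures and 2796 ± 86.7 in keratocyte cultures (SD, n = 3 each; adjusted p = 0.601).

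Among 22 matricellular and adhesive proteins 1 rose and 3 fell (18.2%, against 6.2% of all genes in either direction). Of this list, 2 rose without myofibroblast replicate 3; none fell without myofibroblast replicate 2, myofibroblast replicate 3, keratocyte replicate 1 or keratocyte replicate 3; 2 rose and 3 fell after median centring; 3 rose and 3 fell after quantile normalization. Ccn4, a matricellular protein induced by Wnt signals, had signals of 1583, 869 and 1384 in myofibroblast cultures, against 334, 261 and 342 in keratocyte cultures. The lowest myofibroblast array was above the highest keratocyte array (difference 1.95, SE 0.25, adjusted p = 0.000331). Its relative Ccn2, a growth factor of scars that TGF-beta is known to induce, was bright in both, at 4716, 4039.9 and 4156 in myofibroblast cultures and 3828, 3529.7 and 3832 in keratocyte cultures (adjusted p = 0.799). Fibroblast replicate 3, at 1204, entered the pooled spread of Ccn2, whose lowest adjusted p over the alternatives was 0.166. Gpc1, a membrane heparan sulfate proteoglycan that binds growth factors, rose, with 2281, 2014 and 1447 in myofibroblast cultures against 1089, 745 and 949 in keratocyte cultures (difference 1.02, SE 0.21, adjusted p = 0.00901). In the list of 14 small leucine-rich and other proteoglycans 1 gene rose and 2 fell. Over the alternatives 1 to 2 of that list rose and 1 to 6 fell. In the basement membrane list 4 of 17 genes fell and none rose (1 rose after quantile normalization). Col18a1, the source of endostatin, fell most, to 99.95, 129 and 83.7 in myofibroblast cultures, against 746, 572 and 739 in keratocyte cultures (at least 4.94-fold lower, adjusted p = 5.77e-05).

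**Figure D2:**
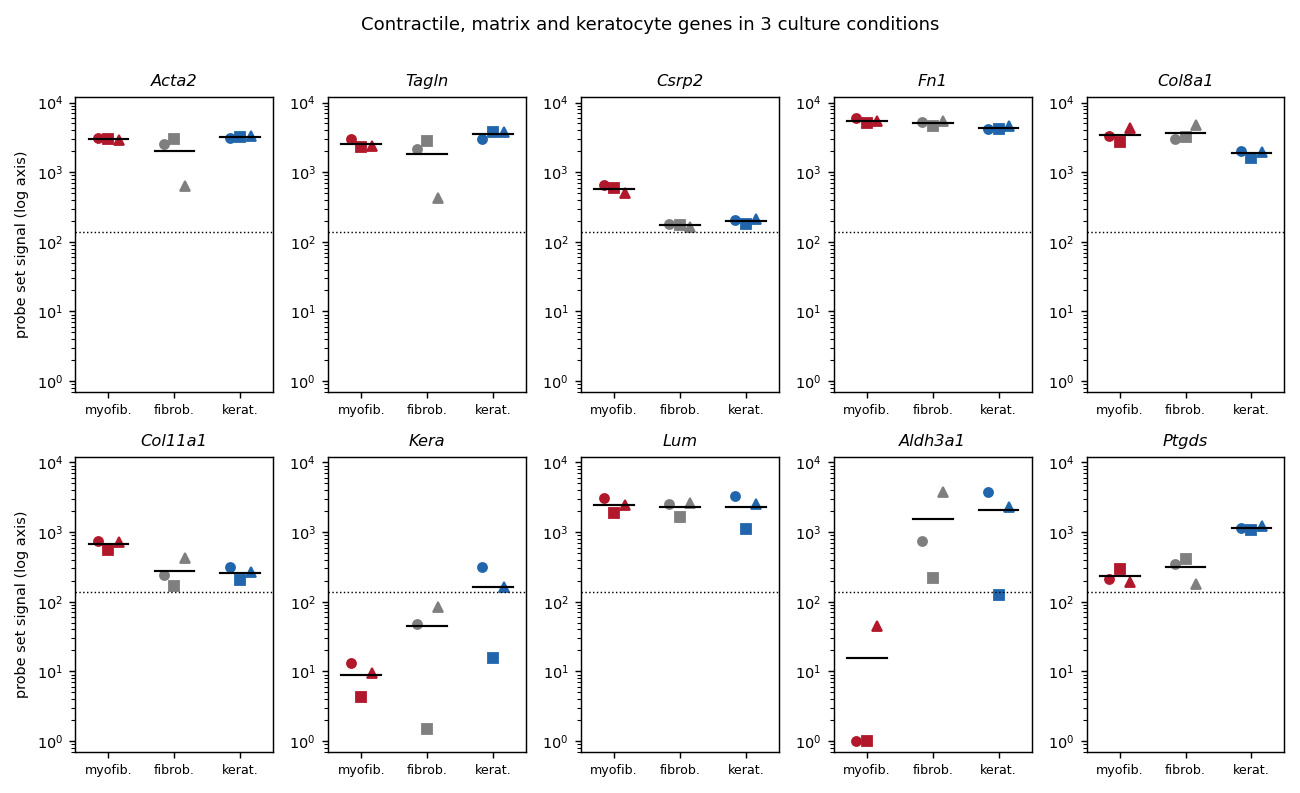
Signals on a log axis of 10 contractile, matrix and keratocyte genes in myofibroblast (red), fibroblast (grey) and keratocyte (blue) cultures; circle, square and triangle are replicates 1, 2 and 3, the black line is the mean of 3 arrays and the dotted line is background at 137.7. The Acta2 and Lum means of myofibroblast and keratocyte cultures lie close together, Csrp2 is higher in myofibroblast culture alone, and Aldh3a1 reaches the floor of 1 on 2 myofibroblast arrays.

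The TGF-beta pathway itself moved in both directions, with 2 of 28 genes higher, 5 lower and a median of -0.21. Of this list, none rose without myofibroblast replicate 1, myofibroblast replicate 3, keratocyte replicate 1, keratocyte replicate 2 or keratocyte replicate 3; 1 rose without myofibroblast replicate 2; 3 fell without myofibroblast replicate 2, myofibroblast replicate 3, keratocyte replicate 1 or keratocyte replicate 3. The ligand gene Inhba, which encodes activin A, had signals of 287, 327 and 353 in myofibroblast cultures, against 155, 173 and 189 in keratocyte cultures (difference 0.84, SE 0.22, adjusted p = 0.0369). Without any 1 of the 6 arrays this call was lost, with adjusted p from 0.0523 to 0.159. Skil, a brake on SMAD proteins, was the other gene that rose, with both means within background. Skil lost its call without myofibroblast replicate 1 (0.0877), myofibroblast replicate 3 (0.139), keratocyte replicate 1 (0.11), keratocyte replicate 2 (0.0867) or keratocyte replicate 3 (0.082). The ligand gene Tgfb2 fell to 20.8, 22.9 and 24.5 in myofibroblast cultures, against 161, 123 and 164 in keratocyte cultures (adjusted p = 0.00029). Tsc22d1, a leucine zipper protein first found as a TGF-beta target, read 762, 672 and 559 in myofibroblast cultures, against 1667, 1659 and 1977 in keratocyte cultures, and fell on every array (difference -1.40, SE 0.21, adjusted p = 0.000893). The other members that fell were Inhbb, another activin subunit, Ltbp1, which stores TGF-beta in the matrix, and Tgfbr3, a co-receptor. For Ltbp1 the call was lost without myofibroblast replicate 2 (0.191), myofibroblast replicate 3 (0.0693), keratocyte replicate 1 (0.203) or keratocyte replicate 3 (0.137), and for Tgfbr3 without any 1 of the 6 arrays (adjusted p from 0.0513 to 0.17). Cdkn2b, a cell cycle inhibitor known as a TGF-beta target, had 286, 164 and 263 in myofibroblast cultures, against 28.9, 29.6 and 25.8 in keratocyte cultures, where it was within background (at least 1.68-fold higher, adjusted p = 7.24e-05). Il11, a cytokine of fibrosis, had 157, 303 and 130.3 in myofibroblast cultures, against 61.3, 54.0 and 69.5 in keratocyte cultures (at least 1.33-fold higher, adjusted p = 0.0108). In the interleukin-6 family list 1 of 12 genes rose and 1 fell. Over the alternatives 1 to 6 of that list fell.

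Genes of prostaglandin synthesis changed in opposite directions, 2 of 10 higher and 2 lower. Ptgs2, the inducible cyclooxygenase, read 1718, 997 and 1269.6 in myofibroblast cultures, against 512, 348 and 397 in keratocyte cultures (difference 1.61, SE 0.29, adjusted p = 0.00343). Pla2g4a, the phospholipase that releases arachidonic acid for it, read 1078, 926 and 1275 in myofibroblast cultures, against 495, 275 and 458 in keratocyte cultures (difference 1.41, SE 0.28, adjusted p = 0.00707). Both were higher on every myofibroblast array. Ptgds, the prostaglandin D synthase that keratocytes express, went the other way, with 211, 291 and 192 in myofibroblast cultures against 1147, 1062 and 1211 in keratocyte cultures (difference -2.24, SE 0.30, adjusted p = 0.000347). Pla2g7, which breaks down platelet-activating factor, was within background in myofibroblast cultures, at 22.5, 17.5 and 36.9, against 296, 174 and 277 in keratocyte cultures (at least 1.76-fold lower, adjusted p = 8.03e-05).

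Of 11 keratocyte markers 3 fell and none rose, with a median of -1.45. Of this list, 5 fell without keratocyte replicate 2. Aldh3a1, the aldehyde dehydrogenase that is a corneal crystallin, read 1.0, 1.0 and 44.3 in myofibroblast cultures, against 3778, 125 and 2326 in keratocyte cultures (at least 7.49-fold lower, adjusted p = 0.00704). A signal of 1.0 is the floor of the deposited values, and keratocyte replicate 2 was itself within background. A second kept Aldh3a1 probe set was lower too but did not pass. Tkt, the transketolase crystallin, read 373, 306 and 356 in myofibroblast cultures, against 1531, 635 and 1021 in keratocyte cultures (difference -1.50, SE 0.24, adjusted p = 0.00132). Ptgds, given above, was the third to fall. Kera, the keratocan core protein, had signals of 13.1, 4.24 and 9.54 in myofibroblast cultures, against 315, 15.7 and 164 in keratocyte cultures (adjusted p = 0.0713, 0.00297 without keratocyte replicate 2). Lum, the lumican core protein, did not pass, at 3072, 1857 and 2410.0 in myofibroblast cultures and 3254, 1122 and 2553 in keratocyte cultures (adjusted p = 0.805). Its difference was 0.18, and -0.27 without keratocyte replicate 2. Dcn, decorin, stood at 4714 ± 418 and 5285 ± 428 in the same order (SD, n = 3 each; adjusted p = 0.438). Keratocyte replicate 2 was the lowest keratocyte array in Aldh3a1, Kera, Lum, Tkt and Aldh1a1, so the keratocyte cultures differed among themselves in their own markers.

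Secreted defence proteins were lower in myofibroblast culture. Of 19 acute phase, complement and host defence genes 11 fell and none rose, and the median was -1.33. The promoters of Saa3 and Saa2 (serum amyloid A proteins) and of Lcn2 (lipocalin 2, which binds bacterial siderophores) are shown because these genes fell together to a small share of their keratocyte level and are known targets of NF-kappaB and C/EBP factors. The 300 bases around each start site are from RefSeq on GRCm38.p6, 5' to 3' on the gene's strand, with matches to TTNNGNAA, a pattern that C/EBP sites share, in capitals. The windows lie at chr7:46715627-46715926 on the minus strand for Saa3, chr7:46751583-46751882 on the plus strand for Saa2 and chr2:32387690-32387989 on the minus strand for Lcn2.
Saa3: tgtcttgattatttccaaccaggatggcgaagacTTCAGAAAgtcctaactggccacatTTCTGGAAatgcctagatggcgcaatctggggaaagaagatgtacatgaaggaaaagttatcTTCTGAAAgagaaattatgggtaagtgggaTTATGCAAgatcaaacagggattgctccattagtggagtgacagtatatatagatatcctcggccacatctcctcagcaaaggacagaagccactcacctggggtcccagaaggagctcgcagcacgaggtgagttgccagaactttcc
Saa2: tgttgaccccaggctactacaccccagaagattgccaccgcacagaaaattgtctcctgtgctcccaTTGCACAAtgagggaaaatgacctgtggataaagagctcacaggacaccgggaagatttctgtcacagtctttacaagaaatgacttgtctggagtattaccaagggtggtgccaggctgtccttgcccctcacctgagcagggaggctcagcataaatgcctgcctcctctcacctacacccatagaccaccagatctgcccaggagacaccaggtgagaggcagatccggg
Lcn2: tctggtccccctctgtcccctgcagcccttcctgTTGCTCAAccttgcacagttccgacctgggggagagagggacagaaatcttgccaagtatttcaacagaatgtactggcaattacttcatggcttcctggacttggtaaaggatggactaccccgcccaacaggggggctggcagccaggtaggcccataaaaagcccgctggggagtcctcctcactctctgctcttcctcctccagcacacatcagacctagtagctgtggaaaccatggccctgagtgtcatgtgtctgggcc
The pattern, read on both strands, matched at 4 places for Saa3, at 1 for Saa2 and at 1 for Lcn2, and 40.7% of 32851 promoter windows of 300 bases hold a match. The NF-kappaB consensus had no match in these windows and is held by 5.8% of all windows. These genes and those whose promoters follow further on were chosen for display after their values were seen.

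Saa3 had signals of 308, 533 and 193 in myofibroblast cultures, against 5266, 5053 and 5297 in keratocyte cultures, where it was among the brightest probe sets (difference -3.97, SE 0.28, adjusted p = 4.25e-06). Saa2 read 24.8, 43.9 and 1.0 in myofibroblast cultures, against 1333, 671 and 992 in keratocyte cultures (at least 6.98-fold lower, adjusted p = 4.27e-06). Lcn2 read 28.5, 72.5 and 12.6 in myofibroblast cultures, against 894, 753 and 1067 in keratocyte cultures (at least 6.5-fold lower, adjusted p = 6.77e-06). For the 3 genes every myofibroblast array was far below every keratocyte array, and fibroblast cultures lay between, at 1484, 1733 and 1277 for Saa3. A second kept probe set of Saa2 changed less and did not pass, and the same held for a second probe set of Lcn2. Serpina3n, an acute phase protease inhibitor, was more scattered, with 229, 582 and 1.0 in myofibroblast cultures, against 2903, 3670.2 and 3531 in keratocyte cultures (difference -4.63, SE 1.04, adjusted p = 0.0153). Serpina3n lost its call without keratocyte replicate 1 (0.052) or keratocyte replicate 3 (0.0621). Ptx3, a soluble pattern receptor made by stromal cells, read 122, 95.9 and 49.99 in myofibroblast cultures, against 923, 867 and 1108 in keratocyte cultures (at least 6.97-fold lower, adjusted p = 5.98e-05). Serping1, the inhibitor of complement C1, read 401, 256 and 301 in myofibroblast cultures, against 2929, 1609 and 2332 in keratocyte cultures (difference -2.76, SE 0.27, adjusted p = 4.88e-05). The other members that fell were Cp, C1ra, C1qa, C1qc and C2. For C1ra the call was lost without myofibroblast replicate 2 (0.0597), keratocyte replicate 1 (0.0778) or keratocyte replicate 3 (0.0588), and for C2 without myofibroblast replicate 2 (0.136), myofibroblast replicate 3 (0.101), keratocyte replicate 1 (0.0984), keratocyte replicate 2 (0.0679) or keratocyte replicate 3 (0.157). Markers of macrophages moved the same way, 14 of 30 lower, with a summed signal of 3174 to 4632 in myofibroblast cultures and 7334 to 9036 in keratocyte cultures, and their part in the fall of these genes was not tested. In bulk RNA, fewer cells of a type and less RNA per cell cannot be told apart.

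Chemokines fell as well, 5 of 17 with none higher. Of this list, 1 rose without myofibroblast replicate 2; 1 rose and 5 fell after median centring; 1 rose and 5 fell after quantile normalization. Ccl2, which attracts monocytes, had signals of 116, 48.1 and 128 in myofibroblast cultures, all within background, against 969.9, 666 and 894 in keratocyte cultures (at least 6.04-fold lower, adjusted p = 0.000139). Cxcl5, which attracts neutrophils, read 67.6, 120.1 and 17.9 in myofibroblast cultures, against 1176, 759 and 1178 in keratocyte cultures (at least 7.38-fold lower, adjusted p = 0.000203). Ccl6 read 46.4, 41.8 and 65.0 in myofibroblast cultures, against 1159, 1027 and 1044 in keratocyte cultures (at least 7.8-fold lower, adjusted p = 2.83e-05). Ccl7 and Ccl9 were the other members that fell. Il6, by contrast, was near background in both cultures, at 98.4, 73.2 and 29.8 in myofibroblast and 164, 105 and 174 in keratocyte cultures (adjusted p = 0.305).

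Genes of class I antigen presentation were lower in 5 of 12 members. Of this list, 3 fell without myofibroblast replicate 2, keratocyte replicate 1 or keratocyte replicate 3. H2-D1, a class I heavy chain, stood at 848, 597 and 554 in myofibroblast cultures, against 1949, 1637 and 1878 in keratocyte cultures (difference -1.45, SE 0.27, adjusted p = 0.00401). H2-K1 stood at 1029, 792 and 789 in myofibroblast cultures, against 2283, 2015 and 2161 in keratocyte cultures (difference -1.30, SE 0.24, adjusted p = 0.00463). A dim H2-K1 probe set, within background, did not fall (means of 86.8 and 81.5 in the same order, adjusted p = 0.797). Neither gene overlapped between the cultures. These genes are close in sequence, and cross-hybridisation between their probe sets was not tested. Of 20 interferon-induced genes 2 were higher, Ifi204 and Irgm1, and 1 lower, Gbp2. A second, dimmer Ifi204 probe set did not rise, with means of 60.7 and 114 in myofibroblast and keratocyte cultures (adjusted p = 0.244). Of this list, none rose without myofibroblast replicate 1, myofibroblast replicate 3, keratocyte replicate 1 or keratocyte replicate 3; 1 rose without myofibroblast replicate 2 or keratocyte replicate 2; none fell without myofibroblast replicate 2, keratocyte replicate 1 or keratocyte replicate 3; 2 rose and none fell after median centring.

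Of 25 matrix proteases and inhibitors 6 fell and none rose (5 fell and 1 rose after median centring). Mmp3, stromelysin 1, had signals of 435, 173 and 80.2 in myofibroblast cultures, against 2746, 2316 and 2769.9 in keratocyte cultures (difference -3.70, SE 0.46, adjusted p = 0.000203). Mmp12, the macrophage elastase, read 108, 144 and 123 in myofibroblast cultures, against 1889.8, 1112 and 1719 in keratocyte cultures (at least 11-fold lower, adjusted p = 9.81e-05). The lysosomal protease gene Ctsb read 1276, 1625 and 1093 in myofibroblast cultures, against 3180.2, 3412 and 3245 in keratocyte cultures (difference -1.31, SE 0.17, adjusted p = 0.000298). All 3 separated the cultures. The others were Ctss, a cathepsin of antigen-presenting cells that is also in the macrophage list, Serpinb2 and Plau, the urokinase gene, whose call was lost without myofibroblast replicate 1 (0.0604), myofibroblast replicate 3 (0.113), keratocyte replicate 1 (0.121) or keratocyte replicate 3 (0.0817).

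**Figure D3:**
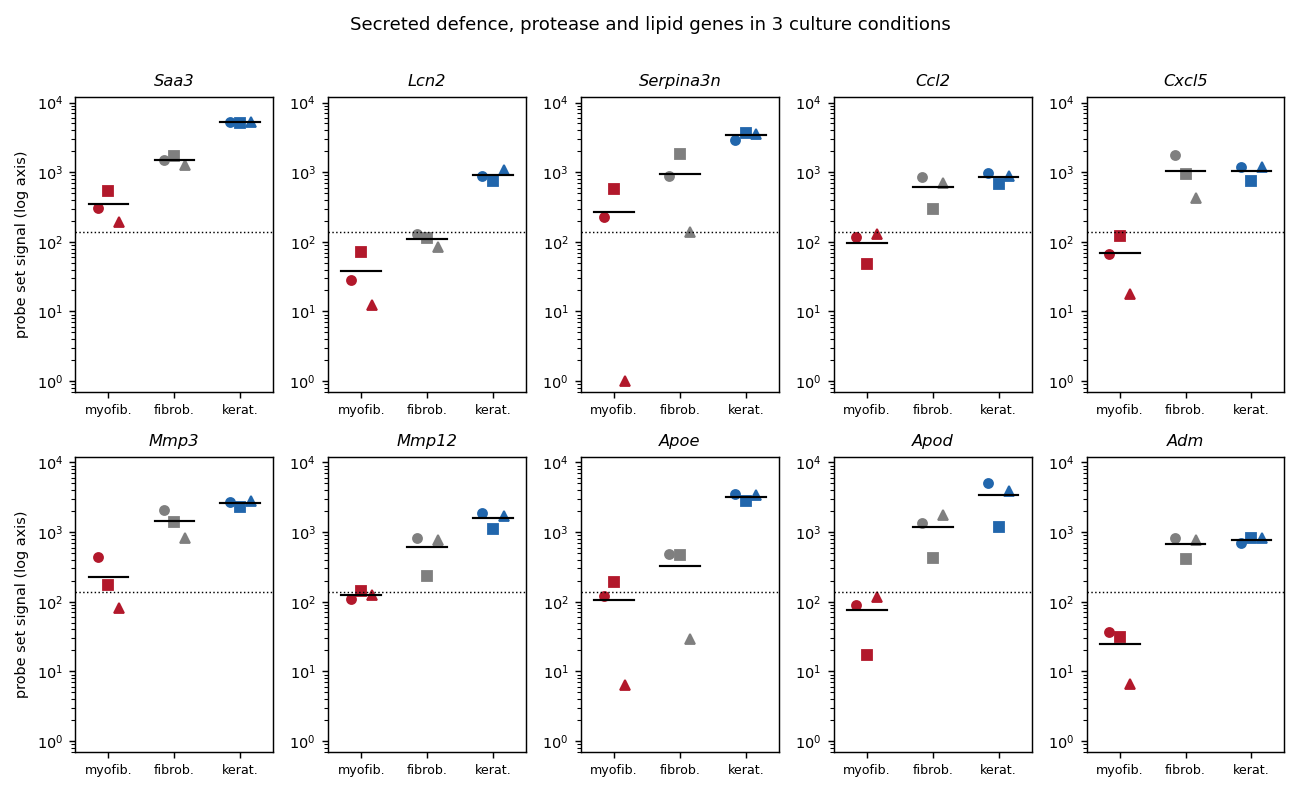
Signals on a log axis of 10 secreted defence, chemokine, protease and lipid genes in myofibroblast (red), fibroblast (grey) and keratocyte (blue) cultures, drawn as in the marker plot with replicates 1, 2 and 3 as circle, square and triangle, the mean of 3 arrays as a line and background at 137.7 dotted. Every myofibroblast array lies below every keratocyte array in all 10, which was a condition for naming these genes. Adm and Cxcl5 in fibroblast culture overlap or approach the keratocyte level.

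Genes of lipid handling fell in 11 of 21 members with none higher, and their median was -1.05. Of this list, 7 fell without keratocyte replicate 1. Apoe, the lipoprotein ligand, had signals of 120.3, 190.0 and 6.38 in myofibroblast cultures, against 3512, 2790.3 and 3413 in keratocyte cultures (at least 21-fold lower, adjusted p = 0.00161). Apod, a lipocalin of quiescent fibroblasts, read 91.1, 17.4 and 116 in myofibroblast cultures, against 5054, 1198 and 3830.0 in keratocyte cultures (at least 20.7-fold lower, adjusted p = 0.000139). These were the largest lower bounds among the named genes. Angptl4, a secreted inhibitor of lipoprotein lipase, read 288, 169 and 181 in myofibroblast cultures, against 1153, 913 and 1204 in keratocyte cultures (difference -2.30, SE 0.28, adjusted p = 0.00019). A dim Angptl4 probe set, within background, did not fall (means of 73.6 and 62.3 in myofibroblast and keratocyte cultures, adjusted p = 0.715). Fabp5, a fatty acid carrier, read 181, 207 and 235 in myofibroblast cultures, against 566, 484 and 489.5 in keratocyte cultures (difference -1.25, SE 0.20, adjusted p = 0.00172).

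Of 22 genes for cholesterol and fatty acid synthesis 3 fell (13.6%, against 4.94% of all genes), all in the sterol pathway. Of this list, 5 fell without myofibroblast replicate 1. Of 32 antioxidant and detoxification genes 5 fell, among them both metallothioneins measured. The promoters of Idi1 and Msmo1, and of Mt1 and Mt2, are shown because members of each pair fell together; CCAAT boxes, which work with sterol response elements, are in capitals in the first pair, and matches to TGCNCNC, which holds the core of the metal response element, in the second. Windows, from RefSeq on GRCm38.p6, lie at chr13:8885356-8885655 (plus strand), chr8:64733529-64733828 (minus strand), chr8:94178839-94179138 (plus strand) and chr8:94172368-94172667 (plus strand), in the order below.
Idi1: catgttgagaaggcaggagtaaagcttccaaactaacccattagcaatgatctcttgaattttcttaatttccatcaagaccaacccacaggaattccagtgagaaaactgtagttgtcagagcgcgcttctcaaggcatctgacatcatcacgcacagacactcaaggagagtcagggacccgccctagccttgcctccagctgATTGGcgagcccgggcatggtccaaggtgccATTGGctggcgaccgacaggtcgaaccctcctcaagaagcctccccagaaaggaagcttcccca
Msmo1: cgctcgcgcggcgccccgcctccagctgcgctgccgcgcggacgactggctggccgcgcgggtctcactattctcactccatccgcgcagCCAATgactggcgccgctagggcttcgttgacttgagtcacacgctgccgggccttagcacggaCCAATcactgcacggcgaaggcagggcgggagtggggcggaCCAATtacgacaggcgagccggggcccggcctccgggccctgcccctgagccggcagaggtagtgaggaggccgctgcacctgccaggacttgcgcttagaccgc
Mt1: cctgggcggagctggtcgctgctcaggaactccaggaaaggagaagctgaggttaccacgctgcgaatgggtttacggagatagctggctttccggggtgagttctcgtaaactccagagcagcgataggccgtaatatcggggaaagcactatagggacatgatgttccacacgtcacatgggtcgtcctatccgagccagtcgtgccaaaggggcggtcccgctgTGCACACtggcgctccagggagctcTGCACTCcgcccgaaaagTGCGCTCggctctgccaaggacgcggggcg
Mt2: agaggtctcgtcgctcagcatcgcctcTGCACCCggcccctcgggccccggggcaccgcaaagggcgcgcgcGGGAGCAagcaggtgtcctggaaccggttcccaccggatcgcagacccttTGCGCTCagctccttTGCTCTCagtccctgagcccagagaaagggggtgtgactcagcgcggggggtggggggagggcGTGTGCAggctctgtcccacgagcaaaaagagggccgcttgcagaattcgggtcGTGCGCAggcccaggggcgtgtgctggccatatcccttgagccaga
Read on both strands, CCAAT matched at 2 places for Idi1 and 3 for Msmo1, and 37.4% of all windows hold it. TGCNCNC matched at 3 places for Mt1 and 6 for Mt2, and 51% of all windows hold it. The sterol pattern TCACNCCAC, which 1.24% of windows hold, had no match in Idi1 or Msmo1. Sqle is named only.

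Idi1, which makes the isoprene units, read 152, 83.8 and 149.5 in myofibroblast cultures, against 394, 316 and 383 in keratocyte cultures (at least 2.48-fold lower, adjusted p = 0.00335). Sqle, the squalene epoxidase, read 241, 153 and 294 in myofibroblast cultures, against 540.0, 504 and 626 in keratocyte cultures (difference -1.26, SE 0.25, adjusted p = 0.00656). Msmo1, a sterol methyl oxidase, read 370.3, 184 and 394 in myofibroblast cultures, against 695, 583 and 759 in keratocyte cultures (difference -1.13, SE 0.26, adjusted p = 0.0184). Msmo1 lost its call without myofibroblast replicate 2 (0.0649), keratocyte replicate 1 (0.0763) or keratocyte replicate 3 (0.0959). Mt2, a metallothionein that binds zinc and copper, read 1528, 1254 and 583 in myofibroblast cultures, against 3204, 3834 and 3549.8 in keratocyte cultures (difference -1.74, SE 0.33, adjusted p = 0.00523). Mt1 read 776, 660.5 and 288 in myofibroblast cultures, against 1394, 2054 and 1774 in keratocyte cultures (difference -1.67, SE 0.38, adjusted p = 0.0174). Mt1 lost its call without myofibroblast replicate 3 (0.0801), keratocyte replicate 2 (0.0515) or keratocyte replicate 3 (0.0723). Myofibroblast replicate 3 was the lowest array in both metallothioneins. Gsta4, a glutathione transferase that clears lipid aldehydes, was within background in myofibroblast cultures, at 12.4, 38.1 and 1.0, against 713, 525 and 767 in keratocyte cultures (at least 4.79-fold lower, adjusted p = 0.00034).

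Glycolytic genes were lower in 9 of 21 members and higher in 1, with a median of -0.58. With 1 array left out 6 to 9 of this list fell. Among those that fell, Ldha lost its call in 5 of these 6 fits, Pgk1 in 3 and Pfkp in 2. Aldoc, an aldolase, had signals of 75.1, 85.5 and 79.96 in myofibroblast cultures, against 346, 362 and 377 in keratocyte cultures (at least 2.63-fold lower, adjusted p = 6.52e-06). Pfkl, a subunit of phosphofructokinase, read 274, 278 and 170.3 in myofibroblast cultures, against 570.0, 641 and 645 in keratocyte cultures (difference -1.33, SE 0.19, adjusted p = 0.000501). Tpi1, the triose isomerase, read 1394, 993 and 1076 in myofibroblast cultures, against 2064, 2260.1 and 2499.6 in keratocyte cultures (difference -0.98, SE 0.20, adjusted p = 0.00726). Each of the 3 had no overlap between cultures. The gene that rose was Hk2, a hexokinase, at 221, 107 and 145 in myofibroblast cultures and at the floor of 1.0 on all keratocyte arrays (adjusted p = 0.0226). Hk2 lost its call without myofibroblast replicate 1 (0.0699), myofibroblast replicate 3 (0.0673), keratocyte replicate 1 (0.0791) or keratocyte replicate 3 (0.0818). None of 28 respiratory chain genes and none of 17 cytosolic ribosomal protein genes passed, with medians of -0.34 and -0.0035, although 1 respiratory chain gene fell without keratocyte replicate 2. Of 43 cell cycle and DNA replication genes 1 passed (2 after median centring or quantile normalization), Aurka, a mitotic kinase whose means were both within background. Without any 1 of the 6 arrays this call was lost, with adjusted p from 0.0922 to 0.121. Mki67, the marker of dividing cells, stood at 335, 169 and 209.8 in myofibroblast cultures and 209, 170.4 and 235 in keratocyte cultures (adjusted p = 0.775).

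In the list of other growth factors and receptors 7 of 24 fell and none rose. Of this list, 1 rose without myofibroblast replicate 3; 3 fell without keratocyte replicate 1; 4 fell without myofibroblast replicate 2 or keratocyte replicate 3; 1 rose and 6 fell after median centring; 1 rose and 7 fell after quantile normalization. Among regulators of the G1 phase 5 of 27 fell and 1, Cdkn2b above, rose. Of this list, 2 fell without keratocyte replicate 3; 3 fell without myofibroblast replicate 3 or keratocyte replicate 1. Adm, the vessel-dilating peptide adrenomedullin, had signals of 36.7, 31.0 and 6.52 in myofibroblast cultures, against 700.4, 814 and 811 in keratocyte cultures (at least 5.61-fold lower, adjusted p = 4.25e-06). Pdgfra, the receptor for platelet-derived growth factor, read 459, 248 and 378 in myofibroblast cultures, against 1528, 783 and 1232 in keratocyte cultures (difference -1.65, SE 0.38, adjusted p = 0.0172). Pdgfra lost its call without myofibroblast replicate 2 (0.0762), keratocyte replicate 1 (0.0964) or keratocyte replicate 3 (0.0786). A dim Pdgfra probe set, within background, did not fall (means of 59.2 and 49.3 in myofibroblast and keratocyte cultures, adjusted p = 0.623). The cell cycle inhibitor p21, encoded by Cdkn1a, read 258, 321 and 232 in myofibroblast cultures, against 802, 676 and 730.4 in keratocyte cultures (difference -1.40, SE 0.21, adjusted p = 0.000773). A second kept Cdkn1a probe set changed less and did not pass. Cdkn1c, another inhibitor of that family, was within background in myofibroblast cultures, at 19.1, 8.94 and 12.1, against 241, 97.9 and 178 in keratocyte cultures (at least 1.17-fold lower, adjusted p = 9.03e-05). Of 14 genes of the insulin-like growth factor system 3 fell, with Igf2, the growth factor, at 152, 155 and 76.0 in myofibroblast cultures, against 1091, 426 and 788 in keratocyte cultures (at least 4.83-fold lower, adjusted p = 0.000355). Of this list, 1 fell without myofibroblast replicate 3, keratocyte replicate 1 or keratocyte replicate 3. The early response gene Ier3, which protects cells from death, rose, with 2472, 1792 and 2056 in myofibroblast cultures against 1103, 729 and 1060.4 in keratocyte cultures (difference 1.13, SE 0.18, adjusted p = 0.00153). Of 25 immediate early genes 1 rose and 2 fell, Dusp1 and Dusp6 (12% passed, against 6.2% of all genes in either direction). Dusp1 lost its call without keratocyte replicate 1 (0.0551) or keratocyte replicate 3 (0.0559), and Dusp6 without keratocyte replicate 3 (0.0517). Over the alternatives 1 to 4 of that list rose and 0 to 7 fell.

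The genes with the largest rises came from several functions. Anxa8, an annexin that binds membranes in the presence of calcium, had signals of 374, 443 and 513 in myofibroblast cultures, against 51.1, 67.2 and 45.3 in keratocyte cultures (at least 3.19-fold higher, adjusted p = 4.25e-06). Rasl11b, a small GTPase, read 429, 286 and 446 in myofibroblast cultures, against 94.7, 63.6 and 89.2 in keratocyte cultures (at least 2.76-fold higher, adjusted p = 0.000118). The probe set for Ccr8, a chemokine receptor of T cells, read 1130.3, 1082 and 1167 in myofibroblast cultures, against 141, 256 and 187 in keratocyte cultures (difference 2.47, SE 0.47, adjusted p = 0.00532). Kcnq1, a potassium channel subunit, read 825, 798 and 937 in myofibroblast cultures, against 244, 169 and 141 in keratocyte cultures (difference 2.14, SE 0.33, adjusted p = 0.00112). None of these 4 overlapped between cultures, which was a condition for naming them. A second Kcnq1 probe set, within background, did not rise, at means of 49.2 in myofibroblast and 78.1 in keratocyte cultures (adjusted p = 0.366). Cdo1, which oxidises cysteine, and Adcy7, an adenylate cyclase, rose at least 2.31-fold and at least 3.22-fold (adjusted p = 0.00112 and 0.0068). Elp5, an Elongator subunit, was scattered, at 161, 729 and 489 in myofibroblast cultures, against 46.9, 1.0 and 1.0 in keratocyte cultures (adjusted p = 0.00343). C1qtnf3, an adipokine-like protein, read 115, 12.5 and 334 in myofibroblast cultures, so that 2 of 3 arrays were within background, against 2.77, 3.26 and 3.44 in keratocyte cultures (adjusted p = 0.0274). C1qtnf3 lost its call without myofibroblast replicate 1 (0.0776), myofibroblast replicate 3 (0.119), keratocyte replicate 1 (0.0969), keratocyte replicate 2 (0.0555) or keratocyte replicate 3 (0.0959).

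Markers of macrophages and of pigment cells were lower in myofibroblast culture. Of 30 macrophage and leukocyte markers 14 fell, including Cd68, a lysosomal glycoprotein of macrophages, at 62.3, 64.8 and 76.6 in myofibroblast cultures, against 393, 351 and 423 in keratocyte cultures (at least 2.81-fold lower, adjusted p = 3.38e-05). Lyz2, the lysozyme of myeloid cells, read 121, 21.6 and 222 in myofibroblast cultures, against 1227, 833 and 1329 in keratocyte cultures (at least 6.86-fold lower, adjusted p = 0.00373). Defining markers did not all move: Ptprc, which encodes CD45, averaged 166 and 160.3 in the same order, close to background (adjusted p = 0.881), and Csf1r, the receptor that macrophages depend on, averaged 153 and 212 (adjusted p = 0.162). No marker was at the floor on all 3 arrays of a culture. Of 8 pigment cell markers 6 fell, and their summed signal was 856 to 1291 in myofibroblast cultures and 2724 to 2974 in keratocyte cultures. Only 4 of the 8 had a mean above background in either culture. With 1 array left out 4 to 7 of this list fell, and Oca2 lost its call in 5 of these 6 fits. Dct, an enzyme of melanin synthesis, had signals of 284, 399 and 319 in myofibroblast cultures, against 1238, 1094 and 1267 in keratocyte cultures (difference -1.81, SE 0.25, adjusted p = 0.000503). Of 13 endothelial markers 3 fell, with Cdh5, the cadherin of vessels, at 9.27, 5.47 and 1.0 in myofibroblast cultures, against 386, 262 and 304 in keratocyte cultures (at least 2.27-fold lower, adjusted p = 0.000203), while the summed signal of the list overlapped (3040 to 3960 in myofibroblast and 2662 to 3647 in keratocyte cultures). Of this list, 1 fell without keratocyte replicate 1. Of 10 corneal epithelium markers 3 fell and none rose, Pax6, Perp and Itga6 being lower, with a summed signal of 1200 to 1311 in myofibroblast cultures and 1531 to 1653 in keratocyte cultures. Of this list, 2 rose and 3 fell after quantile normalization. For Itga6 the call was lost without myofibroblast replicate 2 (0.0967), myofibroblast replicate 3 (0.0645), keratocyte replicate 1 (0.113) or keratocyte replicate 3 (0.12). Krt12, the keratin of corneal epithelium, averaged 294 ± 27.4 in myofibroblast and 238 ± 13.2 in keratocyte cultures (SD, n = 3 each), with an adjusted p of 0.26 that became 0.0384 after quantile normalization and 0.017 with array quality weights. In uncultured adult stroma it averaged 7148. The part of these cell types in the other results was not tested.

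**Figure D4:**
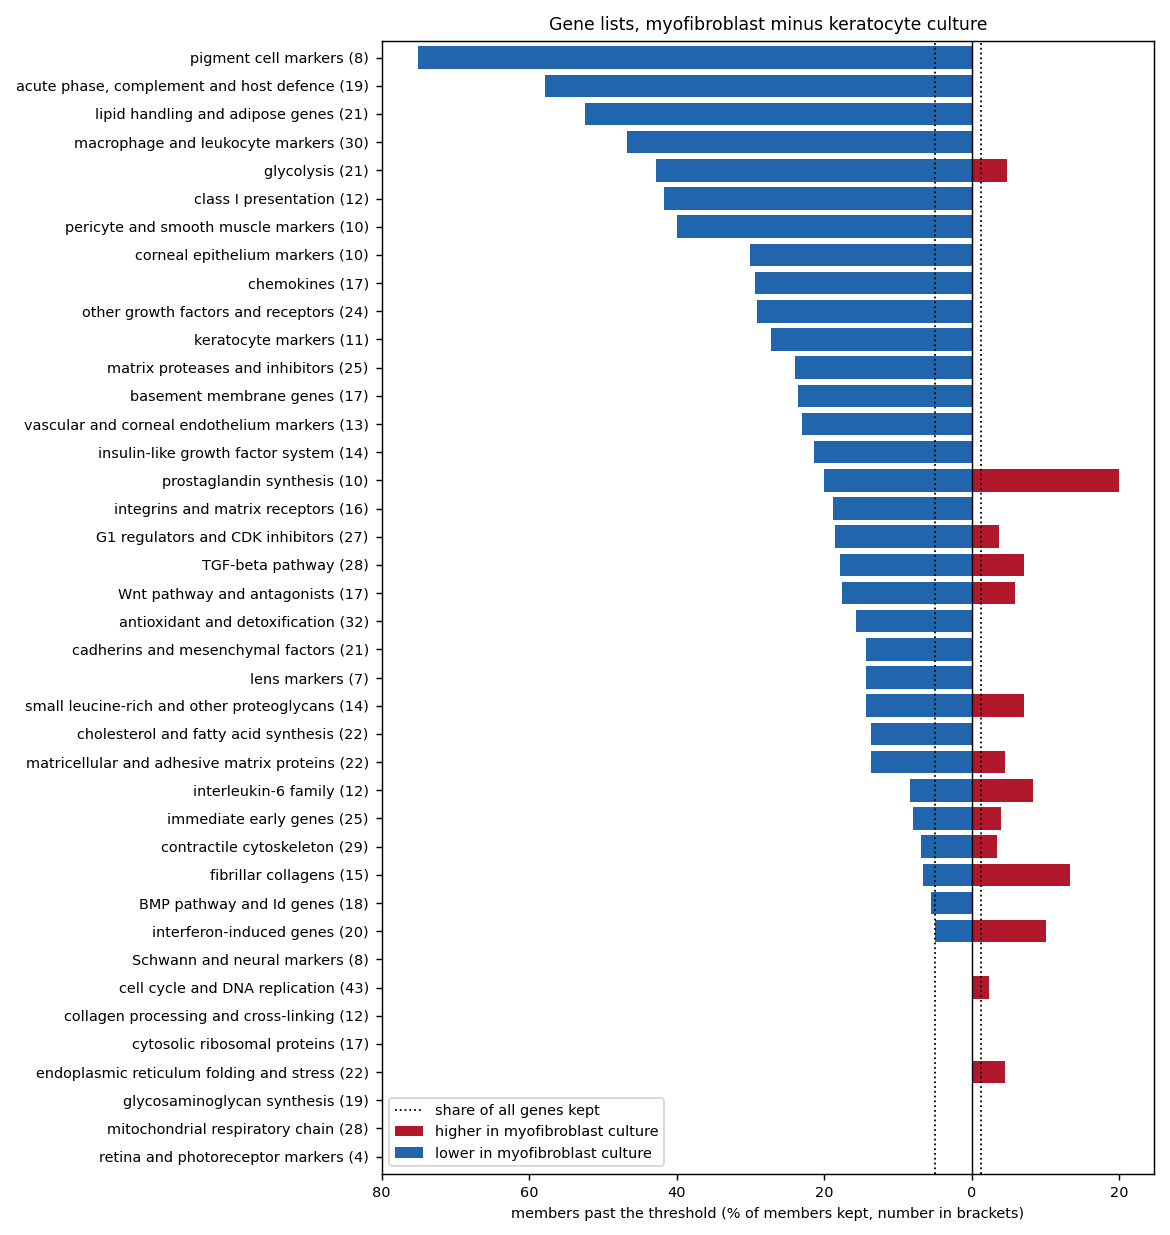
Share of each gene list's kept members (number in brackets) that were higher (red, to the right) or lower (blue, to the left) in myofibroblast culture, in percent, for 40 lists, with dotted lines at the shares of all genes, 1.26% higher and 4.94% lower. Pigment cell markers (of which only 4 of 8 had a mean above background in either culture), defence genes and lipid handling genes have the largest shares lower. Of 29 contractile genes 2 were lower.

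The fibroblast cultures were used to place changes between serum and TGF-beta1. Each step passed for far fewer probe sets than the whole difference (598), so not every change could be placed. Fibroblast minus keratocyte culture passed for 143 probe sets (1.47%), 20 higher (0.206%) and 123 lower (1.27%), and myofibroblast minus fibroblast culture for 108 (1.11%), 31 higher (0.319%) and 77 lower (0.793%). These steps share the fibroblast arrays and add up to the whole difference, so they are given only side by side. Without fibroblast replicate 3 the first count was 57, without keratocyte replicate 1 it was 31 and without keratocyte replicate 3 it was 21, while the second was 63 without myofibroblast replicate 3. Replicate numbers paired the myofibroblast and fibroblast arrays, and with that pairing as a block the second count was 311.

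Some genes passed in the first step, fibroblast minus keratocyte, and not in the second, myofibroblast minus fibroblast. Aldoc had signals of 79.2, 102 and 73.8 in fibroblast cultures, which overlap the myofibroblast values (adjusted p = 4.91e-05 for fibroblast minus keratocyte and 0.984 for myofibroblast minus fibroblast). Both of these Aldoc means were within background, so its second step compares values there and cannot show that nothing changed. Angptl4 was at 167, 166 and 352, with adjusted p = 0.00185 for the first step and 0.998 for the second. Cdkn1a, at 301, 216 and 213 in fibroblast cultures, had 0.00187 and 0.944 in the same order. Dct, at 359, 388 and 239, had 0.00226 and 0.999. Ptgds, at 349.6, 407 and 181, had 0.00659 and 0.883, but its first step was lost without keratocyte replicate 3 (adjusted p = 0.056).

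Others passed in the second step and not in the first. Adm was at 809, 407 and 778 in fibroblast cultures (adjusted p = 1.47e-05 for myofibroblast minus fibroblast and 0.861 for fibroblast minus keratocyte). Anxa8 was at 82.3, 117 and 81.7 there (adjusted p = 9.89e-05 and 0.179 in the same order), and Cdkn2b was at 27.2, 40.4 and 41.1 (0.000446 and 0.865). Ccn4 at 369.7, 223 and 273 (0.00078 and 0.928) and Csrp2 at 182, 173 and 163 (0.00175 and 0.884) had the same form, as did Cxcl5 at 1774, 946 and 432 (0.0012 and 0.95) and Ccl2 at 842, 292 and 705 (0.00259 and 0.717). Mmp3 and Apod passed in the second step as well (0.00711 and 0.00703). The keratocyte and fibroblast means of Anxa8 and Cdkn2b were within background, so their first step cannot show that nothing changed.

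Saa3 and Saa2 passed in both steps. For Saa3 the first step was -1.80 (adjusted p = 0.00659) and the second -2.17 (adjusted p = 0.00118), and for Saa2, at 191, 185 and 195 in fibroblast cultures, the adjusted p was 0.00659 and 0.00191. The first step of Saa2 was lost without keratocyte replicate 1 (0.0538) or keratocyte replicate 3 (0.056). Ptgs2 was at 944, 450.4 and 490.0 in fibroblast cultures and passed in neither step alone (0.686 and 0.104), but did in the second with the pairing as a block (adjusted p = 0.00376) and without fibroblast replicate 1 (0.0239). H2-D1, at 1638, 1139 and 1280.1, also passed in neither step alone (0.707 and 0.106) but did in the second with the block (0.00352).

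**Figure D5:**
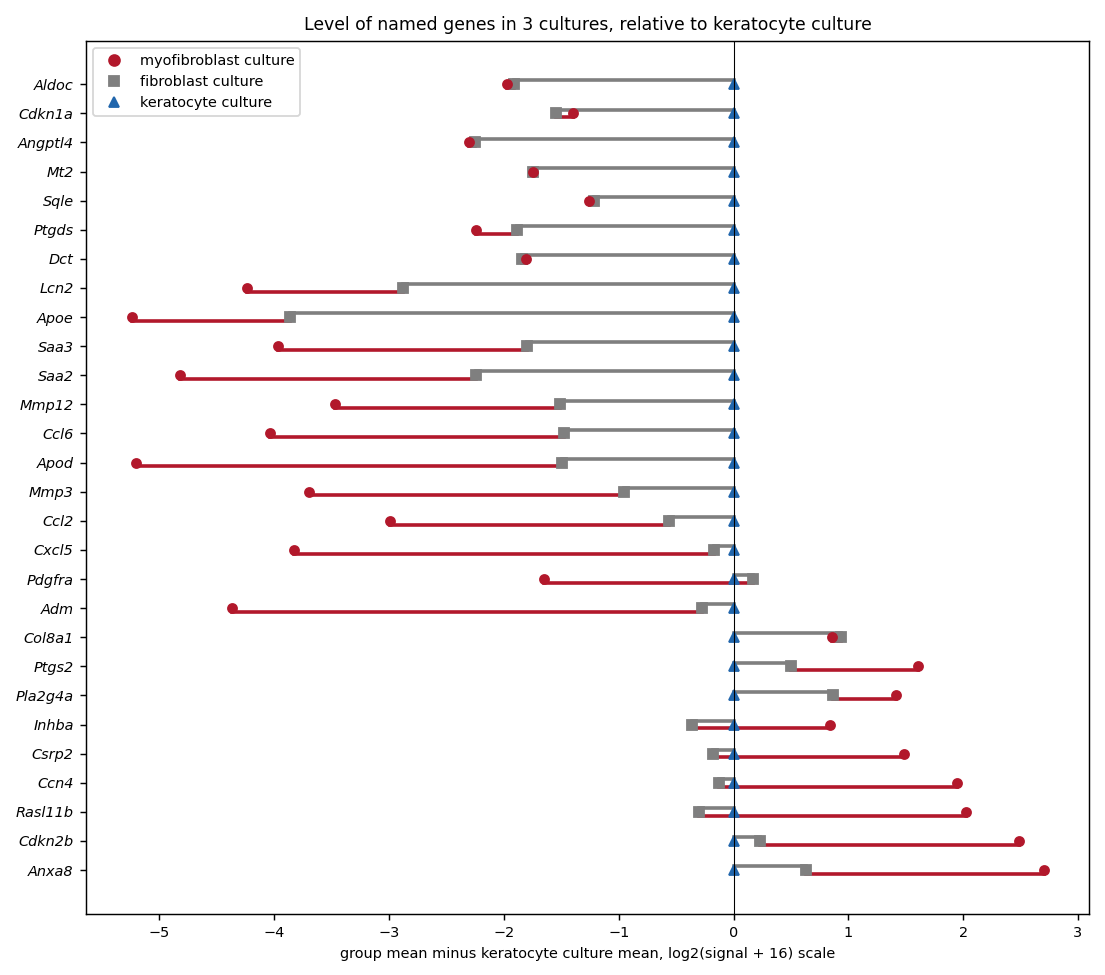
Mean level of 28 named genes in myofibroblast (red circle) and fibroblast (grey square) culture relative to keratocyte culture (blue triangle at 0), on the log2(signal + 16) scale; the grey line is fibroblast minus keratocyte and the red line myofibroblast minus fibroblast, 3 arrays each. Aldoc and Angptl4 end near their fibroblast level, whereas Adm, Cxcl5, Csrp2 and Cdkn2b move mostly along the red line; members below background move on a compressed scale.

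The fibroblast level departed from the midpoint of myofibroblast and keratocyte cultures for 20 probe sets (0.206%), 10 above (0.103%) and 10 below (0.103%). The count was 10 without keratocyte replicate 3 and 13 without myofibroblast replicate 3. These genes were chosen after their values were seen. Penk, the enkephalin precursor, had signals of 493, 423 and 418 in myofibroblast cultures, 1839, 1314 and 1343 in fibroblast cultures and 477, 523 and 560.0 in keratocyte cultures, so that all fibroblast arrays lay above the other 6 (adjusted p = 0.000508 for the departure). Mest, an imprinted gene of growing mesenchyme, read 28.1, 17.8 and 27.2 in myofibroblast, 381, 518 and 1344 in fibroblast and 241, 150.2 and 229.9 in keratocyte cultures (adjusted p = 0.000508). Apcdd1, a Wnt inhibitor, had 80.3, 96.4 and 68.3 in myofibroblast, 289, 292 and 398 in fibroblast and 187, 112 and 143 in keratocyte cultures (adjusted p = 0.0014). The myofibroblast means of Mest and Apcdd1 were within background. Crabp2, a carrier of retinoic acid, and Tfpi2, a protease inhibitor, also passed, but their fibroblast and keratocyte means were both within background, so their place below the midpoint rests partly on differences there. The highest adjusted p over the alternatives and left-out arrays was 0.00975 for Penk, 0.0201 for Mest and 0.0201 for Apcdd1.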

How the data were processed

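RNA (5 µg of total RNA per sample, extracted with TRIzol per the labels' protocols) had been hybridised to 14 1-colour arrays. The authors deposited 1 summary intensity per probe set and array, made with Microarray Suite 5.0 and scaled to a target of 150 per the labels; its detection calls were not used here, and precision is set by how many arrays there are. Gene names came from GEO's platform annotation updated to current symbols: 10833 probe sets had 1 symbol, 396 several and 1193 none. The 9710 probe sets were fitted on log2(signal + 16) with limma 3.58.1 in R 4.3.3 over all 14 arrays, 1 mean per group, with an intensity trend, and called at an adjusted p below 0.05, two-sided. On simulated data for this comparison over 9710 probe sets, 63% of changes of 1 and 96% of changes of 2 on the log2 scale were recovered, with 3 false calls. The simulated noise was independent for each probe set and array, whereas real arrays shared deviations across probe sets. These figures are therefore not error rates for the real data.

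The members and gene lists were chosen with earlier results of these data known. Genes named with values were the 10 largest rises and falls that passed with no overlap and a mean above background, up to 4 such members of each list with 3 or more past the threshold, and a short set named whatever their values. The other list members given with values (Aurka, C1ra, C2, Cd68, Csf1r, Ctsb, Fabp5, Il11, Itga6, Lox, Ltbp1, Myh11, Pfkl, Plau, Ptprc, Ptx3, Serping1, Skil, Tgfbr3 and Tpi1) and the promoters shown were chosen after their values were seen.

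Alternatives changed the added constant, the filter on dim probe sets, the scaling, the arrays in the fit, the variance model and the array left out. Deviations of same-numbered myofibroblast and fibroblast arrays from their group means correlated at 0.6304, 0.6989 and 0.5456, so the numbers were taken to pair these groups. The same check between myofibroblast and keratocyte arrays gave 0.2211, 0.4173 and 0.0789, and between fibroblast and keratocyte arrays 0.1945, 0.5834 and 0.0713, so the numbers were not taken to pair them.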

Additional observations from a re-analysis of the deposited data

How the results depend on the processing

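Of 105 named genes 91 passed, and 61 of these passed under each of the 20 alternatives. The 598 probe sets that differed between myofibroblast and keratocyte culture (114 higher, 484 lower) numbered 296 to 678 when 1 array was left out, with 52 to 102 higher and 243 to 595 lower. A replicate block, whose numbers were not taken to pair these cultures, gave 2162 (399 higher, 1763 lower) over 9 culture arrays and 1917 (347 higher, 1570 lower) over the 6 arrays. Array quality weights gave 2692 (610 higher, 2082 lower). A stricter adjusted p below 0.01 left 298 (45 higher, 253 lower), and asking for a difference of 1 or more left 390 (57 higher). The higher count was 279 after quantile normalization and 278 after median centring. Fibroblast minus keratocyte numbered 421 with the replicate block and 21 to 147 with 1 array left out, against 143. Myofibroblast minus fibroblast numbered 311 with the replicate block and 63 to 148 with 1 array left out, against 108; among named genes the block added Col18a1, Ltbp1, Ctss, Irgm1, H2-D1, H2-K1, Psme1, Ier3, Dusp1, Ptgs2, Sfrp2, Lyz2 and Cd53 and changed no other call. Departures from the midpoint numbered 31 with an added constant of 64, 32 after quantile normalization, 13 over the 9 culture arrays, 68 with the replicate block and 10 to 26 with 1 array left out, against 20. List medians changed sign for prostaglandin synthesis (0.0155 after quantile normalization, 0.0149 after centring), cadherins and mesenchymal factors (0.0297 and 0.00885), lens markers (0.0562 and 0.051) and interferon-induced genes (0.00693 after centring). Acta2 turned to 0.078 and Dcn to 0.0104 after centring, neither past the threshold. Lum ranged from -0.265 to 0.496 and Mki67 from -0.101 to 0.359 with 1 array left out. The cause of these shifts was not tested. For 366 of the 598 probe sets the lower mean was within background, so a fold, where given, is a bound. For 143 of the 598 both means were within background, and no fold is given for these. The list counts under each alternative, and the steps under other scalings, with the block and with single arrays left out, were added after seeing the data.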

Other observations

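The brightest probe set stood for each gene, but different probe sets of 1 gene passed in opposite directions for Fth1, the ferritin heavy chain (0.60 and -0.94 on the log2 scale, myofibroblast minus keratocyte), and for Ghrl, the ghrelin precursor. The Ghrl probe sets averaged 293 and 36.9 in myofibroblast cultures, against 165 and 169 in keratocyte cultures. Neither gene has a single direction here.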
